A study of Homo sapiens with 9 samples.

Results

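The genes described here encode 10 kinesins that work in mitosis and cytokinesis, namely KIF11, KIF15, KIF2C, KIF18A, CENPE, KIF4A, KIF20B, KIF23, KIF20A and KIF14. The study's own list of lowered genes holds KIF11, KIF23, KIF20A and KIF14. All 10 were chosen by name, with earlier results of these data known. Each was measured by the probe set whose platform annotation gives that gene symbol and no other, and each had 1 such probe set, so that 10 of 22392 genes with 1 symbol and 10 of 53617 probe sets are followed. After GNE-140, all 10 had a lower fitted signal than in control cells, 8 of them passed the test at an adjusted p under 0.1, and 6 of these fell by more than 2-fold. KIF11, KIF20A, KIF15, CENPE, KIF23 and KIF14 are those 6. KIF2C and KIF18A fell by less than 2-fold, while KIF20B and KIF4A did not pass.

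Kinesins are motor proteins that use ATP to walk along microtubules or to take their ends apart. A dividing cell uses a distinct group of them to push the spindle poles apart, to carry chromosomes to the spindle equator, to correct faulty attachments, and later to build the central spindle and the midbody on which cytokinesis depends. In proliferating cells most of these genes are transcribed in the G2 phase and in mitosis and are low in cells that have left the cycle. Other kinesins carry organelles, vesicles and ciliary cargo in cells at any phase.

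The cells were MDA-MB-231, a triple-negative breast cancer line established from a pleural effusion. The GNE-140 group was treated for 24 h with GNE-140, a small molecule that inhibits lactate dehydrogenase A, B and C, at 50 µM, and the control group was grown alongside without it, in the same high-glucose medium. RNA was measured on GeneChip Human Gene 2.1 ST arrays in 2 sets. Set 1 holds 2 GNE-140 and 3 control arrays and set 2 holds 2 GNE-140 and 2 control arrays by the titles and treatment labels, which gave the groups, although the study's text gives other numbers per set. Another label, the source name, names a Boswellia preparation for 6 of the 9 arrays, which are all 4 GNE-140 arrays and both control arrays of set 2. The conflict was not settled here and touches all comparisons of the groups. Arrays are named by set and letter, as in GNE-140 1A. Whether the arrays hold RNA of separate cultures is not in the labels, and the p-values therefore rest on array-to-array spread that may be technical.

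Signals were deposited on a log2 scale. The median over probe sets lay between 1.32 and 1.36 on the arrays of set 1 and between 2.27 and 2.31 on those of set 2, so that the sets are not on the same scale and the main comparison takes the set as a block. Pairs of arrays correlated across probe sets with r from 0.976 to 0.986 within set 1, from 0.979 to 0.985 within set 2 and from 0.932 to 0.952 between the sets. In set 1, 68.2% of probe sets had exactly the same value on at least 2 arrays, against 1.06% in set 2. KIF4A was the only member with such a tie. All 10 members lay above the median of every array, by at least 0.99 on the log2 scale. VIM, CD44, AXL, MET and CAV1 averaged 5.21 to 6.05 above the array median on GNE-140 arrays and 5.39 to 6.19 on control arrays. Among the luminal markers, ESR1, PGR and FOXA1 lay below the median on every array. Of the other luminal markers, EPCAM lay 2.33 to 3.19 and GATA3 0.30 to 1.57 above the median over the 9 arrays, and CDH1 lay between -0.34 and 0.67 of it. The mean of 5 fibroblast markers lay below the median (-0.38 to -0.21 on GNE-140 arrays, -0.33 to -0.08 on control arrays). Of these, DCN and LUM lay below it on every array and COL1A1 lay 0.08 to 0.89 above it. COL1A2 (-0.17 to 0.07) and PDGFRB (-0.54 to 0.35) lay on both sides. Of 4 leukocyte markers, PTPRC and CD3E were below the median on every array, and CD14 lay between -0.16 and 0.83 of it. The mean of the 4 (1.17 to 1.26 on GNE-140 arrays, 1.17 to 1.34 on control arrays) was carried by CD68. The mean of 6 luminal markers was 0.22 to 0.44 on GNE-140 arrays and 0.29 to 0.54 on control arrays. No marker of these 4 classes passed the test.

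The windows around the starts of the 10 genes were searched for letters that are known from promoters of cell cycle genes. The cell cycle homology region (CHR) was searched as TTTGAA or TTCGAA, the CCAAT box as CCAAT and an E2F site as TTTGGCGC, TTTCGCGC, TTTCCCGC or TTTGCCGC. Both strands were read, from 250 bases before to 50 bases after the annotated start, in the RefSeq promoters of GRCh38.p14, where all 10 genes matched. A CHR match was found in 7 of the 10 windows, against 16.4% of 35116 promoters. CCAAT was found in 7 of the 10, against 34.6% of promoters, and E2F letters in 1 of the 10, KIF15, against 3.31%. In all 7 genes the CHR matches lay within 100 bases of the start, where 7.37% of promoters had one, and so did a CCAAT match in 7 genes, against 21.3% of promoters. KIF2C and CENPE had none of these letters in their windows. Here the genes were not drawn at random, and a match is a description of the letters only.

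The windows of 5 genes are shown, from 100 bases before to 20 bases after the start. They are those of 3 genes that fell by more than 2-fold and hold both CHR and CCAAT letters (KIF11, KIF23 and KIF14), of 1 gene that holds both and did not pass (KIF4A), and of 1 that fell by more than 2-fold with CCAAT letters alone (KIF20A). Capitals mark CHR letters (TTTGAA, or TTCAAA where the match is on the other strand) and CCAAT letters (or ATTGG).
KIF11: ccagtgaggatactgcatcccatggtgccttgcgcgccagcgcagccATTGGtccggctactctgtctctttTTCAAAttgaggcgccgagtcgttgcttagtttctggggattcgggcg
KIF23: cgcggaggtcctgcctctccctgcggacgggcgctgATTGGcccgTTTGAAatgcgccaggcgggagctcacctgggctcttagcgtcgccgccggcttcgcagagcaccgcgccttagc
KIF14: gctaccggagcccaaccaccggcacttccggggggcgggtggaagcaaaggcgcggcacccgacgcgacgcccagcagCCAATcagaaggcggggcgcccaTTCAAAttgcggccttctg
KIF4A: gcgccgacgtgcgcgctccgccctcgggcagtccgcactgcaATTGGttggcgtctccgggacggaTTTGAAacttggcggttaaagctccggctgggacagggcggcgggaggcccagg
KIF20A: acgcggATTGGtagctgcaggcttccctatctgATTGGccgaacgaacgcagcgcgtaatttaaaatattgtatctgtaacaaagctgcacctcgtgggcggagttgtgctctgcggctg

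In GRCh38.p14, the window of KIF11 lies at chr10:92593030-92593149 on the plus strand. KIF23 lies at chr15:69414249-69414368 on the plus strand. KIF14 lies at chr1:200620732-200620851 on the minus strand. KIF4A lies at chrX:70290004-70290123 on the plus strand. KIF20A lies at chr5:138179012-138179131 on the plus strand. Counted from the start as +1, the CHR letters occupy -28 to -23 in KIF11, -55 to -50 in KIF23, 2 to 7 in KIF14 and -34 to -29 in KIF4A. Those of KIF15 occupy -35 to -30, right next to the E2F letters at -43 to -36, and those of KIF18A -10 to -5. KIF20B has 2 adjoining CHR matches after its start, at 25 to 30 and at 31 to 36. KIF20A has 2 CCAAT matches, at -94 to -90 and at -67 to -63.

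**Figure D1:**
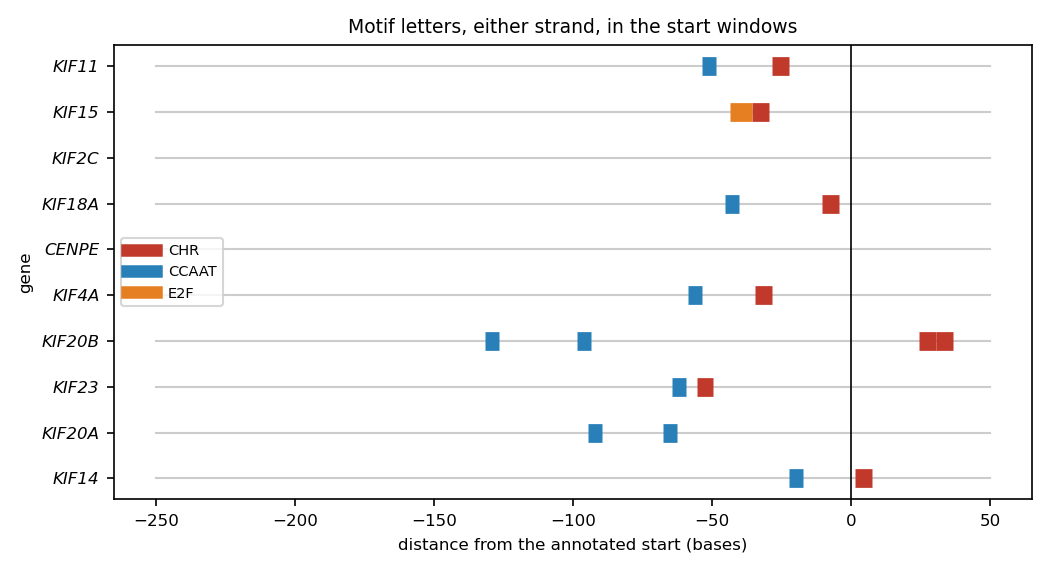
Positions of CHR, CCAAT and E2F letters on either strand in the start windows of the 10 genes, with the distance from the annotated start in bases on the x axis and 1 gene per row. CHR letters lie within 100 bases of the start in 7 genes, and KIF2C and CENPE hold none of the 3 kinds.

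Next, GNE-140 was compared with control for each gene, in an order that follows the work of the proteins through division. KIF11 (also called Eg5, chr10:92593130-92655395) is the tetrameric motor that slides antiparallel microtubules apart and gives the spindle its 2 poles. Its log2 signal was 5.63 and 5.46 on the GNE-140 arrays of set 1, against 6.72, 6.69 and 6.44 on the control arrays of set 1. In set 2 it was 5.13 and 5.40 on the GNE-140 arrays, against 6.90 and 7.04 on the control arrays. Every GNE-140 array was thus below every control array of either set. The log2 fold change of KIF11 with the set as a block was -1.36 (standard error 0.142, 95% interval -1.69 to -1.04, adjusted p = 0.00966 from limma with Benjamini-Hochberg adjustment), so that the signal was 38.9% of that in control cells, and this was the change of largest size among the 10 genes.

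KIF15 (chr3:44761794-44868687) is a motor on spindle microtubules that helps to keep the poles apart and can stand in for KIF11. The GNE-140 arrays of set 1 had a log2 signal of 3.81 and 3.31, against 4.36, 4.69 and 4.49 on the control arrays. Set 2 gave 3.30 and 3.89 on the GNE-140 arrays, against 4.96 and 5.09 on the control arrays. The groups did not overlap, although the GNE-140 arrays of a set differed by 0.50 in set 1 and by 0.60 in set 2. KIF15 fell by 1.17 on the log2 scale (standard error 0.171, adjusted p = 0.0318 from limma), 2.25-fold.

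Of the genes for chromosome movement, CENPE changed by more than 2-fold and KIF2C and KIF18A by less. CENPE (chr4:103105811-103198343) encodes the large kinetochore motor that brings chromosomes to the spindle equator. Its log2 signal was 4.15 and 3.20 on the GNE-140 arrays of set 1, against 4.72, 4.96 and 5.09 on the control arrays. In set 2 it was 3.87 and 4.03 on the GNE-140 arrays, against 4.81 and 5.05 on the control arrays. GNE-140 1B was the lowest of all, 0.95 below GNE-140 1A, and still no GNE-140 array reached a control array. CENPE fell by 1.13 on the log2 scale (standard error 0.187, adjusted p = 0.0480 from limma), 2.18-fold.

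KIF2C (also called MCAK, chr1:44739837-44767767) takes microtubule ends apart at centromeres, where it helps to release faulty attachments. The GNE-140 arrays of set 1 had a log2 signal of 3.59 and 3.64, against 4.47, 4.22 and 4.32 on the control arrays. Set 2 gave 4.55 and 4.64 on the GNE-140 arrays, against 5.61 and 5.16 on the control arrays. The groups were apart within each set but not across them, since the GNE-140 arrays of set 2 lay above the control arrays of set 1. KIF2C fell by 0.75 on the log2 scale (standard error 0.0999, adjusted p = 0.0248 from limma), 1.68-fold.

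KIF18A (chr11:28020619-28108156) moves to the plus ends of kinetochore microtubules and damps the swings of chromosomes at the equator. Its log2 signal was 4.17 and 4.11 on the GNE-140 arrays of set 1, against 5.01, 4.83 and 4.85 on the control arrays. In set 2 it was 4.50 and 4.47 on the GNE-140 arrays, against 5.38 and 5.44 on the control arrays. Both GNE-140 pairs agreed to within 0.06, and the groups did not overlap. KIF18A fell by 0.83 on the log2 scale, 1.78-fold, with the smallest standard error of the 10 genes (0.0667, adjusted p = 0.00372 from limma).

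The genes of the central spindle and of cytokinesis held both the lowest p-values and the 2 that did not pass. KIF23 (also called MKLP1, chr15:69414349-69448427) is the motor subunit of centralspindlin, the complex that bundles microtubules between the separating chromosomes. The GNE-140 arrays of set 1 had a log2 signal of 5.37 and 5.39, against 6.40, 6.29 and 6.48 on the control arrays. Set 2 gave 5.17 and 5.10 on the GNE-140 arrays, against 6.21 and 6.42 on the control arrays. A gap separated the 4 GNE-140 arrays from the 5 control arrays, whichever set they came from. KIF23 fell by 1.09 on the log2 scale (standard error 0.0752, adjusted p = 0.00220 from limma), which ranked 8 of 22392 genes by p.

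KIF20A (also called MKLP2, chr5:138179112-138187723) brings Aurora B and its partners to the central spindle. Its log2 signal was 4.07 and 4.02 on the GNE-140 arrays of set 1, against 5.30, 5.30 and 5.23 on the control arrays. In set 2 it was 3.98 and 3.83 on the GNE-140 arrays, against 5.15 and 4.89 on the control arrays. The GNE-140 arrays kept within 0.24 of each other over both sets and lay apart from all controls. KIF20A fell by 1.18 on the log2 scale (standard error 0.0739, adjusted p = 0.00220 from limma), 2.26-fold, and ranked 3 of 22392 genes by p.

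KIF14 (chr1:200551497-200620751) is held at the central spindle and the midbody and serves the last steps of cytokinesis. The GNE-140 arrays of set 1 had a log2 signal of 4.24 and 4.08, against 4.85, 5.03 and 4.57 on the control arrays. Set 2 gave 3.76 and 3.64 on the GNE-140 arrays, against 5.12 and 5.14 on the control arrays. The groups did not overlap, with a smaller gap in set 1 than in set 2. KIF14 fell by 1.02 on the log2 scale (standard error 0.164, adjusted p = 0.0435 from limma), 2.02-fold, just past the 2-fold threshold.

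KIF20B (also called MPP1, chr10:89701590-89774934) is a motor needed to complete cytokinesis. Its log2 signal was 4.78 and 4.06 on the GNE-140 arrays of set 1, against 4.89, 4.99 and 5.01 on the control arrays. In set 2 it was 4.44 and 4.67 on the GNE-140 arrays, against 5.49 and 5.68 on the control arrays. No GNE-140 array reached a control array, but GNE-140 1A came within 0.11 of the nearest control. The log2 fold change of KIF20B was -0.76 (standard error 0.163, 95% interval -1.14 to -0.39, adjusted p = 0.122 from limma), and it passed in 1 of 9 fits with an array left out. That was without GNE-140 1A (adjusted p = 0.0102 from limma), and in the other fits the adjusted p reached 0.329.

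KIF4A (chrX:70290104-70420886) is a chromosome-bound motor that shapes mitotic chromosomes and sets the length of the central spindle. The GNE-140 arrays of set 1 had a log2 signal of 4.09 and 5.28, against 5.43, 5.74 and 5.28 on the control arrays. Set 2 gave 4.96 and 4.32 on the GNE-140 arrays, against 5.37 and 4.50 on the control arrays. The groups met in set 1, where GNE-140 1B and control 1C had the same value, and overlapped in set 2. The log2 fold change of KIF4A was -0.57 (standard error 0.293, 95% interval -1.24 to 0.10, adjusted p = 0.552 from limma), an interval that holds a fall of more than 2-fold as well as no change. KIF4B, a nearly identical copy of KIF4A, had a log2 fold change of -0.08 (adjusted p = 0.883 from limma), and how far probes of one gene also read the other was not tested.

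**Figure D2:**
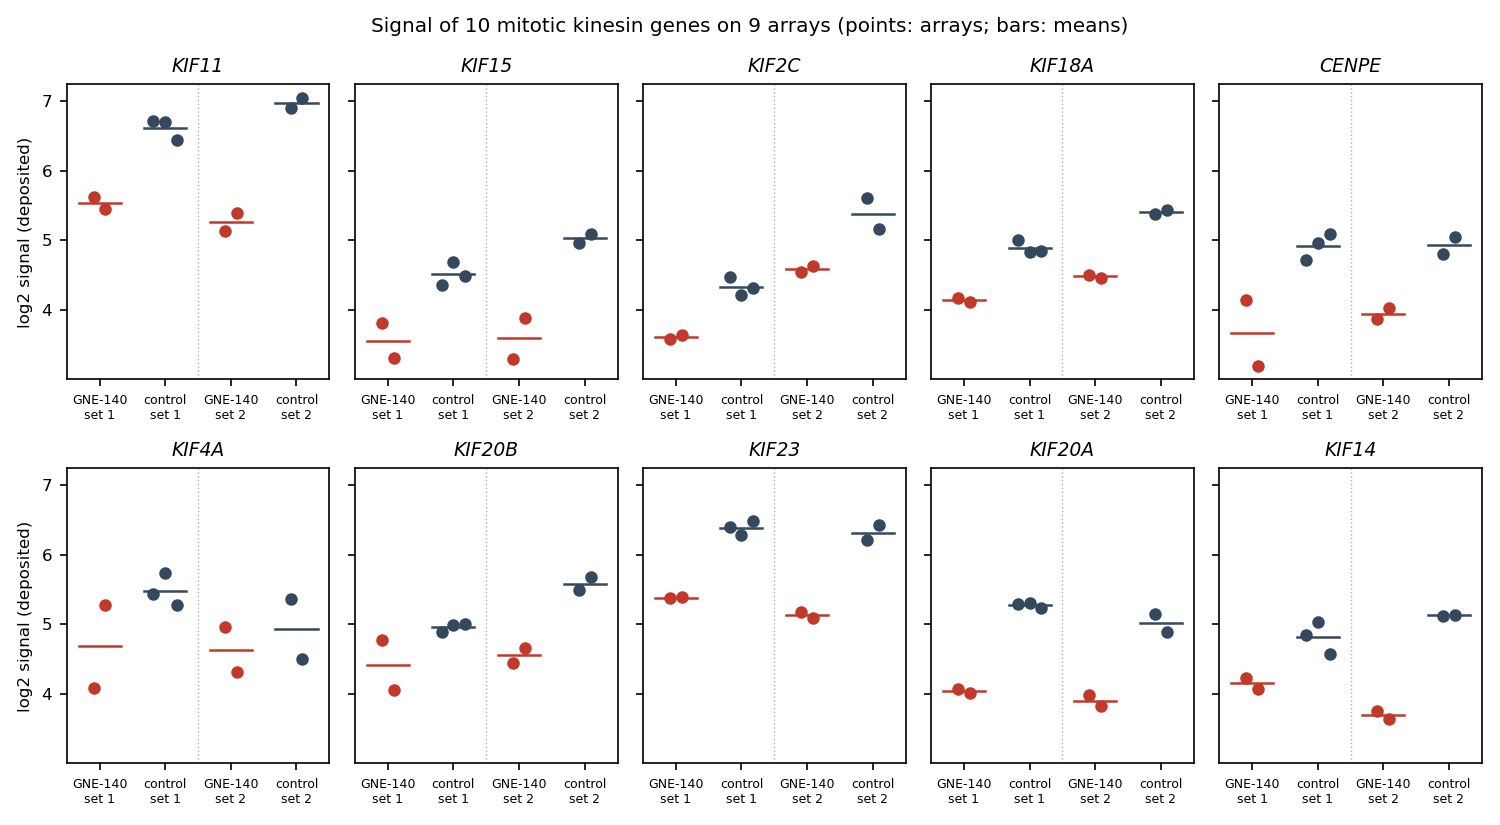
Deposited log2 signal of the 10 genes on the y axis for each array (points) with the mean of each group (bars), GNE-140 in red and control in dark blue, set 1 left and set 2 right of the dotted line. In 9 genes every GNE-140 array lies below every control array of its set, and in KIF4A the groups meet or overlap.

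Counted together, 8 of the 10 genes fell at an adjusted p under 0.1, against 0.532% of all 53617 probe sets that were lower by the same rule. When a fall of over 2-fold and one direction across the sets were asked as well, 6 of the 10 were called lower, against 0.138% of probe sets. Because the genes were chosen with earlier results of these data known, these shares are a description only. The median log2 fold change of the 10 was -1.05, and that of all genes was 0.0066. The result rests on the set term. When the 9 arrays were compared without it, 0 members passed, and the adjusted p from limma was 0.282 for KIF11 and for KIF20A, 0.375 for KIF23 and higher for the others, while the median of the 10 was -1.06. In these bulk samples, fewer cells in the phases that transcribe these genes and less of their RNA per cell cannot be told apart.

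Within each set alone, the test had fewer arrays and no member passed after adjustment, as did 0% of probe sets in set 1 and 0% in set 2. The lowest adjusted p among the members was 0.206 in set 1 (KIF20A) and 0.106 in set 2 (KIF11 and KIF14), both from limma. At an unadjusted p under 0.05, 8 members were lower in set 1, against 2.07% of probe sets, and 9 in set 2, against 4.21%. The exceptions were KIF4A and KIF20B in set 1 and KIF4A in set 2. Every GNE-140 array was below every control array for 9 members in set 1 (5.47% of probe sets), for 9 in set 2 (18.6%), and for the same 9 within both sets (2.14%). Over all 9 arrays, without regard to set, this held for 8 members (0.474% of probe sets), and KIF2C and KIF4A were the exceptions.

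The size of the fall in each set was also compared directly. KIF14 had a log2 fold change of -1.44 in set 2 and -0.66 in set 1, a difference of -0.77 (95% interval -1.25 to -0.29), and KIF11 had -1.71 in set 2 and -1.08 in set 1, a difference of -0.63 (95% interval -1.09 to -0.18). Neither difference passed after adjustment over all probe sets (adjusted p = 0.449 for KIF14 and 0.483 for KIF11 from limma's interaction term), and 0 members did, against 0.0541% of probe sets. CENPE, KIF4A and KIF20A had the larger fall in set 1 and the other 7 in set 2. For KIF23 the difference was -0.17 (95% interval -0.51 to 0.16) and for KIF20A 0.12 (95% interval -0.23 to 0.46), and both intervals hold differences of either sign.

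**Figure D3:**
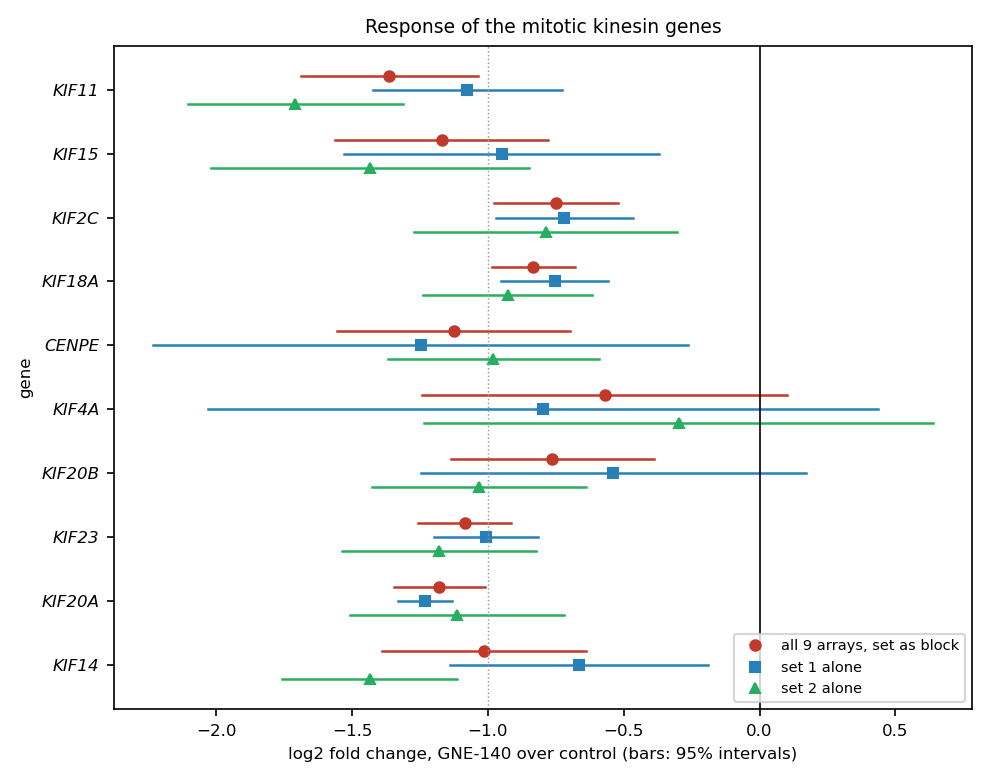
Log2 fold change of GNE-140 over control on the x axis with 95% intervals for each gene, from all 9 arrays with the set as a block (red circles), from set 1 alone (blue squares) and from set 2 alone (green triangles), with a dotted line at a 2-fold fall. All 30 estimates are below 0, and the intervals of KIF4A, and of KIF20B in set 1, reach past 0.

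The 9 arrays differ in how firmly they carry each gene. When each array was left out in turn, KIF11, KIF2C, KIF18A, KIF23 and KIF20A kept an adjusted p under 0.1 in all 9 fits. KIF15 kept it in 6, and lost it without control 2A, control 2B or GNE-140 2B. KIF14 kept it in 4 of the 9 fits and lost it without control 1B or any array of set 2. CENPE kept it in 3 and lost it without control 1B, control 1C or any array of set 2. Leaving out control 2A, control 2B or GNE-140 2B left 5 members past the adjusted p and 3 called lower. The log2 fold changes ran from -0.86 to -0.81 for KIF18A and from -1.47 to -1.25 for KIF11. They moved more for CENPE, from -1.30 to -0.89, with the smallest change, under 2-fold, when GNE-140 1B was left out. KIF20B ran from -0.98 to -0.67. KIF4A ran from -0.77 to -0.26, the smaller without GNE-140 1A.

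**Figure D4:**
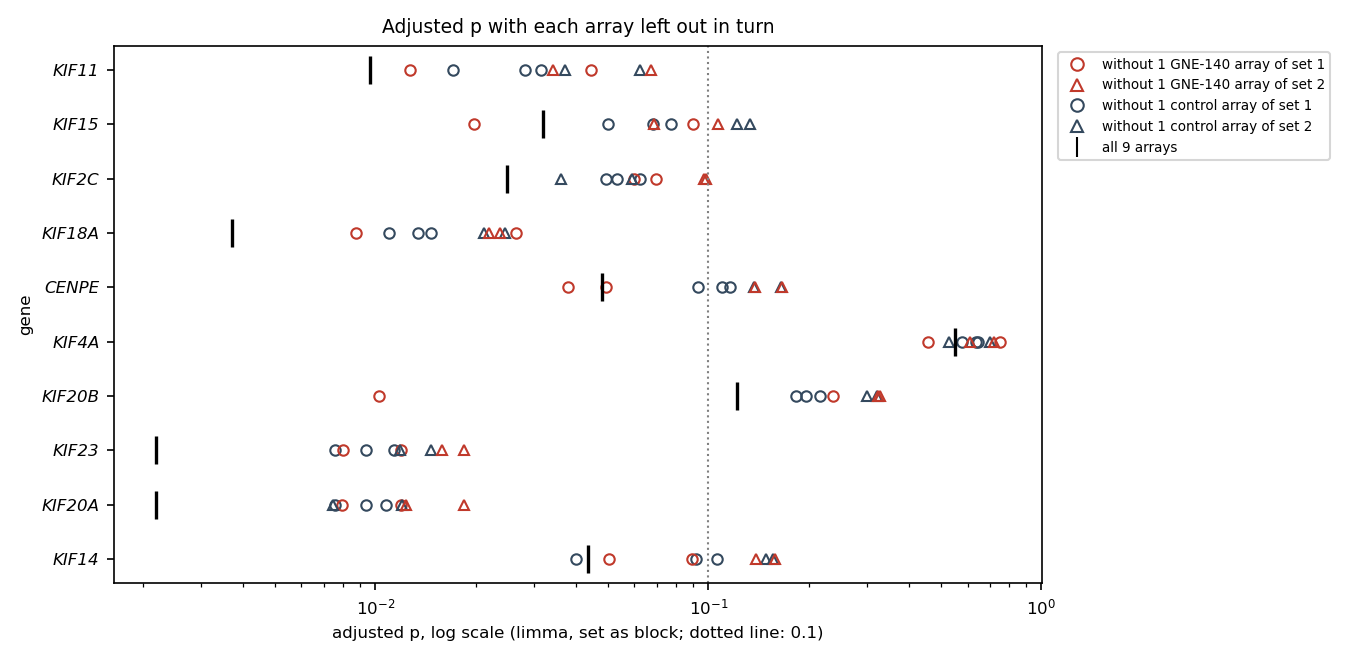
Adjusted p from limma with the set as a block, on a log axis, for each gene with all 9 arrays (black bars) and with 1 array left out (open symbols, circles for set 1 and triangles for set 2, red for GNE-140 and dark blue for control). KIF11, KIF2C, KIF18A, KIF23 and KIF20A stay left of the dotted line at 0.1 in all fits, and KIF20B crosses it without GNE-140 1A.

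Deviations from the set means showed how alike the genes were over the 9 arrays. Each was correlated with the mean of the other 9 genes, as a description only, since the points share arrays and the treatment. Pearson's r was between 0.883 (CENPE) and 0.987 (KIF18A) for 9 genes and 0.436 for KIF4A. Outside the 10, the genes whose pattern over the 9 arrays was most like the mean of the members were NUSAP1, a microtubule-binding protein of the spindle (r = 0.996), NCAPG2, a condensin II subunit (r = 0.994), TOP2A, the type II topoisomerase of dividing cells (r = 0.994), MKI67, the Ki-67 antigen (r = 0.994), and CERK, which phosphorylates ceramide (r = 0.993). Their log2 fold changes were -1.27 for NUSAP1, -1.28 for NCAPG2, -1.37 for TOP2A and -1.37 for MKI67. CERK had the same pattern with a smaller change, of -0.35 on the log2 scale (adjusted p = 0.0298 from limma).

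Other kinesins with a role in division were followed as a list. Of 7 measured, 1 fell and 0 rose, against 1.02% of all genes that fell, and the median log2 fold change was -0.39. The 1 was KIF22, a motor on chromosome arms, whose log2 signal was 4.72 and 4.60 on the GNE-140 arrays of set 1, against 5.25, 5.21 and 5.10 on the control arrays. In set 2 it was 5.85 and 5.63 on the GNE-140 arrays, against 6.31 and 6.17 on the control arrays. The groups of KIF22 were apart in each set, and it fell by 0.51 (standard error 0.0731, adjusted p = 0.0292 from limma). KIFC1, a minus-end motor that clusters centrosomes, had a log2 fold change of -0.60 (adjusted p = 0.183 from limma). It has 4 probe sets, of which 2 gave the same value, another gave -0.65 and the one with the lowest signal had -0.02. KIF18B (-0.44), KIF24 (-0.39), KIF2A (-0.33) and KIF2B (0.11) did not pass either.

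Kinesins of transport and cilia were a further list. None of 31 measured passed the test, their log2 fold changes ran from -0.18 to 0.21, and their median was 0.05. Tubulins, the subunits of the track, gave 0 of 18 with a median of 0.01, and cytoplasmic dynein and dynactin, the motor that runs the other way, 0 of 17 with a median of 0.0049. Over all genes, 228 of 22392 fell and 152 rose. These lists are described by their counts, and whether they differ from the members was not tested.

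Binding partners of the mitotic kinesins fell in part. Of 13 measured of 15 listed, 6 fell (46.2%), against 1.02% of all genes, and 0 rose. The median log2 fold change was -0.72. Of the 6, the 4 with the largest change are named. MKI67, which KIF15 binds, fell by 1.37 (adjusted p = 0.00372 from limma), and its log2 signal was 5.71 and 5.40 on the GNE-140 arrays of set 1, against 6.73, 6.97 and 6.74 on the control arrays. CENPF, a kinetochore protein found with CENPE, fell by 1.21 (adjusted p = 0.00672 from limma). PLK1, the mitotic kinase that KIF20A docks, fell by 1.13 (adjusted p = 0.0150 from limma). PRC1, the microtubule bundler that KIF4A and KIF14 bind, fell by 1.07 (adjusted p = 0.0114 from limma), with 5.15 and 4.57 on the GNE-140 arrays of set 1, against 5.90, 6.01 and 5.88 on the control arrays. RACGAP1, the partner of KIF23 in centralspindlin, was singled out after its values were seen. Its log2 fold change was -0.12 (adjusted p = 0.746 from limma), and its signal lay between -0.50 and 1.29 of the array median. Whether a fall of RACGAP1 could be seen at so low a signal was not tested.

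**Figure D5:**
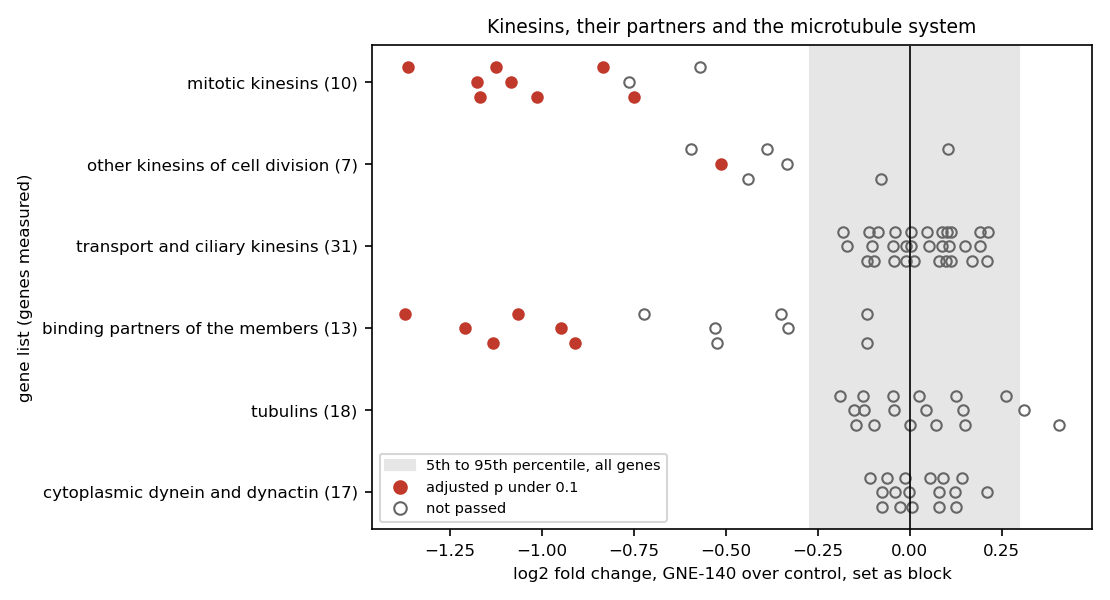
Log2 fold change of GNE-140 over control, with the set as a block, on the x axis for every measured gene (points) of the mitotic kinesins and 5 other lists, with filled points at an adjusted p under 0.1 and the 5th to 95th percentile of all genes in grey. All 10 mitotic kinesins lie left of the grey band, as do most of the other division kinesins and most of the binding partners. Transport kinesins, dynein and dynactin lie within it. So do the tubulins except TUBB2A (0.41) and TUBB3 (0.31), which did not pass and are named after their values were seen.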

How the data were processed

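RNA of MDA-MB-231 cells was measured on 9 arrays (4 GNE-140, 5 control, in 2 sets). The authors deposited log2 signals, which they derived from the scanner output in the Affymetrix Expression Console and the Transcriptome Analysis Console (the second by the submitters' processing notes). For versions, summarization and normalization, the sources used here give nothing. Signals of different probe sets were placed against the array median and averaged over markers, with no correction for differences between probes. Arrays have no depth, and their number limits the precision. Genes take their names from probe sets to which the platform's annotation gives 1 symbol (23866 of 53617, while 1852 had several and 27899 none). Of several probe sets, the one with the highest mean was taken.

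Deposited values were tested with limma 3.58.1 (lmFit and eBayes, R 4.3.3) on all 53617 probe sets, with Benjamini-Hochberg adjustment and the set as a block, within each set, and for the set-by-treatment interaction. A call used the study's cutoffs, namely an adjusted p below 0.1, a p below 0.05 before adjustment, a change of over 2-fold and one direction across the sets. The study's text asks that direction and significance both repeat in the 2 sets. Here only the direction had to repeat, and the p-values were those of the block fit, so that the rule is not the same. Intervals are at 95%. The procedure was tested on simulated data. The members, gene lists, motif letters and tests were chosen with earlier results of these data known. Named were the 10 members, the other division kinesins, up to 4 genes per list with the largest change at an adjusted p under 0.1, and the 5 genes most like the members after set means were removed. Promoters came from RefSeq (GRCh38.p14). Alternatives were another normalization, filter, variance model, set term, replicate block and leaving out each array.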

Additional observations from a re-analysis of the deposited data

How the results depend on the processing

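All 10 genes kept a negative log2 fold change in all 18 alternatives. With the set as a block there were 8 genes lower at an adjusted p under 0.1, 6 called and a median of -1.05. Without the set term both counts were 0, in set 1 alone 0 and 0 with a median of -0.87, and in set 2 alone 0 and 0. With a replicate block for set and letter both counts were also 0 (median -1.07, adjusted p from limma 0.111 to 0.276 for the 8 genes). In that fit control 1C is alone in its block, and the log2 fold changes equal those without control 1C, where the counts were 7 and 5. The block also leaves fewer degrees of freedom. The standard error of KIF11 was 0.138 with the replicate block and 0.142 with the set as a block. These 0 counts therefore do not show an effect of pairing. Deviations of same-lettered arrays from their group means correlated with r of 0.03 (1A), -0.15 (1B) and -0.0025 (2A and 2B). The values of 2A and 2B are equal by construction, since set 2 has 2 arrays per group. Whether a letter marks a shared culture or run cannot be told from these correlations. Quantile normalization and the removal of dim probe sets gave 9 and 6, KIF20B being added (adjusted p = 0.0782 and 0.0733 from limma). Centring each array and a robust trended variance kept 8 and 6, and array weights gave 8 and 5. With each array left out, the counts ranged over 5 to 9 and 3 to 6, and the median over -1.12 to -0.98. The lowest counts came without control 2A, control 2B or GNE-140 2B. The causes of these changes were not tested. Other probe sets of a gene could not be tried, since each of the 10 has 1. A rule that sets the gap between an end value and its neighbour against the range singled out no member value, in 20 groups of 4 or 5 arrays. With so few arrays it can single out only very distant values, so that an array with weight on a result can go unflagged.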
